A study of Schizosaccharomyces pombe with 29 samples.

Results

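The 10 genes described here, ste11, mei2, map1, gpa1, ras1, ste6, ste4, byr2, byr1 and spk1, control the entry of fission yeast (Schizosaccharomyces pombe) into mating and meiosis. They were taken by name from the 6986 gene IDs of the count table, and all 10 passed the filter on low counts in every comparison. When nitrogen runs out, fission yeast cells of opposite mating type exchange pheromones, fuse and enter meiosis. The pheromone receptors act through the G protein alpha subunit Gpa1 and, together with the GTPase Ras1, drive a kinase cascade of Byr2, Byr1 and Spk1. The transcription factor Ste11 switches on most genes of this programme, the RNA-binding protein Mei2 commits the cell to meiosis, and in cells growing in rich medium the programme is held low.

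Polyadenylated RNA was sequenced in 31 libraries from strains with different versions of the C-terminal tail (CTD) of RNA polymerase II, a run of repeated 7-residue units (heptads) at the end of its Rpb1 subunit. The control strain, h+ rpb1-CTD-WT29::NatMX, has 29 heptads of unchanged sequence and was measured as WT29 set 1 (3 libraries) and again as WT29 set 2 (3 libraries, whose count columns were assigned to its sample record by elimination). With the same length, mating type and NatMX marker, and 3 libraries each, came Y1F, S2A, S2A-S7A, ALT-P3A, ALT-S5A and ALT-P6A, named for the amino acid changed and its place in the heptad. What ALT stands for is not spelled out in the labels. T4A (rpb1-CTD-T4A29, 3 libraries) also has 29 heptads, and its labels give no mating type; its libraries are re-analysed and came from another sequencing instrument. WT18 has 18 heptads of unchanged sequence and 4 libraries. Its replicates 1 and 2 are new and h+ with the NatMX marker. Its replicates 3 and 4 are re-analysed, h- with ade6 ura4-D18 leu1-32, and made with another RNA purification and library kit, so that mating type, markers and protocol cannot be told apart in that pair. All cells grew vegetatively at 30 °C in YES, a rich medium. The labels give 1 strain number per set of new libraries and do not say whether replicates came from separate cultures except for WT18 replicates 3 and 4, so p-values measure the spread between these libraries. T4A, the ALT alleles and WT18 were compared with WT29 set 2 per the labels, and Y1F, S2A and S2A-S7A with WT29 set 1. Since the genes differ between the control sets, every allele is given against both.

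The libraries held between 15.2 M and 35.8 M counts (median 22.8 M). The labelled mating type was checked against marker genes. Among P-cell (h+) markers, map2, the P-factor precursor, averaged 8.18 CPM (counts relative to the scaled library total) in WT18 replicates 1 and 2 and 6.38 in the h- replicates 3 and 4, and map3, the M-factor receptor, averaged 20.8 and 14.4. Among M-cell (h-) markers, the M-factor precursor mfm1 averaged under 1 CPM in every group. Its relative mfm2 averaged 11.0 CPM in WT18 replicates 1 and 2 and 23.3 in replicates 3 and 4, and between 0.58 and 2.38 in the other groups. In the same order, mam1 (28.5 and 40.0) and sxa2 (20.2 and 24.7) were also higher in the h- replicates. The M-cell markers mfm3 (1.84 and 0.827) and mam2 (2.65 and 2.24) went the other way. The summed P-cell markers ran from 416 CPM in WT18 to 1266 in WT29 set 1, and the summed M-cell markers from 58.4 in S2A-S7A to 83.9 in WT29 set 2. Most of the P-cell sum was sxa1, at 391 CPM in WT18 and 1226 in WT29 set 1. The levels of map2 did not follow it, at 7.28 and 5.41 CPM in these groups. Within WT18, the h- libraries summed to 91.4 CPM of M-cell and 394 of P-cell markers, and the h+ libraries to 64.5 and 437. None of these 9 markers averaged 0 in any group, and the P-cell markers were thus not absent from the h- libraries. Their part in the results was not tested. In whole-culture RNA, fewer cells that express a gene and less RNA per cell cannot be told apart.

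The level of ste11, the HMG-box transcription factor at the head of the programme, set WT29 set 1 apart from all other libraries. In CPM scaled over all 31 libraries, it was 265, 256 and 291 in WT29 set 1 and 46.0, 41.7 and 44.7 in WT29 set 2. The 28 libraries outside set 1 lay between 12.5 (WT18 replicate 4) and 73.8 (S2A-S7A replicate 1). The libraries of the 2 sets, labelled as the same strain, thus did not overlap, and the columns assigned to set 2 lay inside the range of the mutants. The alleles measured 36.1, 37.6 and 40.2 CPM in Y1F, 18.8, 16.4 and 36.3 in S2A, and 73.8, 47.7 and 37.8 in S2A-S7A. They measured 35.4, 44.6 and 46.7 in T4A, 26.5, 26.5 and 31.8 in ALT-P3A, 52.4, 53.2 and 39.0 in ALT-S5A, and 36.9, 37.3 and 36.3 in ALT-P6A. The WT18 libraries read 24.8, 27.7, 22.6 and 12.5, the lowest group mean of the 10. Below set 1, neighbouring group means overlapped in their libraries all the way down except between ALT-P6A and ALT-P3A.

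The RNA of mei2, which encodes the RNA-binding protein that the Pat1 kinase keeps inactive during growth, spanned the widest range of the 10 genes. It was 171, 143 and 127 CPM in WT29 set 1, and no other library exceeded 44.4, the level of Y1F replicate 1. WT29 set 2 measured 26.7, 23.6 and 19.9 CPM. The group order below set 1 was Y1F (44.4, 36.6 and 43.6), ALT-P6A (31.7, 34.3 and 30.9), ALT-S5A (32.5, 29.5 and 18.1) and then WT29 set 2, so that the means of these alleles lay above the second control set, although ALT-S5A overlapped with it. S2A-S7A (19.2, 12.7 and 11.5), T4A (9.73, 20.6 and 12.6) and ALT-P3A (11.3, 13.9 and 12.4) lay lower. S2A was lowest at 6.18, 6.53 and 4.96 CPM, with a group mean 24.9-fold below that of WT29 set 1. WT18 split by source, with 21.3 and 20.7 CPM in the new libraries and 6.23 and 5.09 in the earlier ones.

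**Figure D1:**
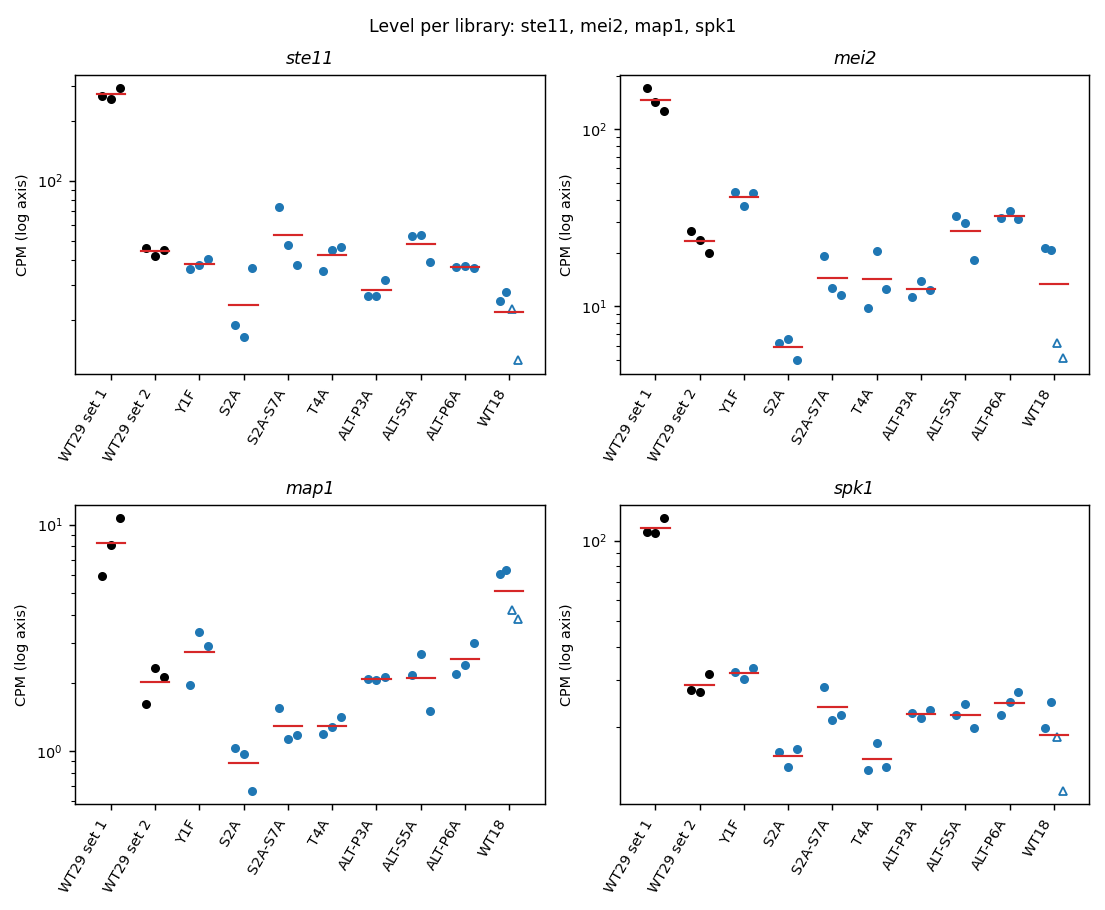
Level of ste11, mei2, map1 and spk1 in each library, in CPM on a log axis, by group; points are libraries, red lines are group means, black marks the control sets and open triangles the earlier WT18 libraries. For ste11, mei2 and spk1 the 3 libraries of WT29 set 1 lie above all 28 others, and for map1 they lie above 26 of them.

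Map1, a MADS-box protein that works with mating-type factors to switch on P-cell genes, had the lowest counts of the 10, between 14 and 224 reads per library. In WT29 set 1 its RNA measured 5.95, 8.15 and 10.6 CPM, and in WT29 set 2 it measured 1.61, 2.33 and 2.11. WT18 came closest to set 1, at 6.04, 6.30, 4.21 and 3.82 CPM, and its upper libraries overlapped with set 1. S2A was lowest at 1.03, 0.964 and 0.667 CPM. T4A lay between 1.18 and 1.41 CPM and S2A-S7A between 1.13 and 1.54, while Y1F and the 3 ALT alleles lay between 1.5 and 3.33, around the second control set.

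Among the signalling genes, gpa1, for the G protein alpha subunit coupled to the pheromone receptors, again had set 1 above all 28 other libraries. It measured 125, 136 and 149 CPM in WT29 set 1 and 90.1, 82.8 and 95.4 in WT29 set 2. S2A had the lowest libraries, at 33.7, 26.7 and 31.5 CPM, followed by S2A-S7A at 49.3, 39.4 and 41.4. These alleles lay below every library of both control sets, and so did WT18 at 63.6, 59.6, 46.4 and 38.6, T4A at 67.8, 77.7 and 76.6 and ALT-S5A at 77.8, 76.8 and 71.2. ALT-P3A and ALT-P6A lay between 76.7 and 88.3 CPM and overlapped with set 2. In Y1F gpa1 reached 90.9, 85.1 and 99.3, overlapping with set 2.

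The RNA of ras1, for the GTPase that acts beside Gpa1 and also in cell shape, varied least among the 10, with a ratio of 1.40 between the highest and the lowest group mean. It was 73.4, 74.8 and 73.0 CPM in WT29 set 1 and 67.8, 67.2 and 66.4 in set 2, and lowest in Y1F at 53.6, 53.8 and 50.5. WT18 was the most spread, with 89.4 and 72.4 CPM in the new libraries and 50.4 and 51.0 in the earlier ones. Ste6 is the exchange factor that loads Ras1 with GTP. Its RNA was 19.8, 20.8 and 19.3 CPM in WT29 set 1 and 16.7, 15.8 and 17.6 in set 2, and it was highest in S2A-S7A (24.3, 23.7 and 24.5), not in a control set. ALT-P6A, at 9.11, 8.98 and 7.26 CPM, and T4A, at 9.01, 8.13 and 9.57, had the lowest group means. All libraries of ALT-P6A, T4A, Y1F, ALT-P3A and ALT-S5A lay below both sets, and WT18 measured 8.47, 7.70, 19.4 and 8.48.

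The cascade below Ras1 did not follow a common order of groups. The RNA of spk1, for the MAP kinase at the end of the cascade, was 108, 107 and 121 CPM in WT29 set 1 and 27.4, 27.0 and 31.4 in set 2. All 28 libraries outside set 1 lay between 11.5 and 33.2 CPM, with the T4A libraries at 13.7, 17.3 and 14.1 and the S2A libraries at 16.1, 14.1 and 16.4. For byr1, the MAP kinase kinase that acts on Spk1, set 1 measured 97.4, 102 and 115 CPM and set 2 measured 62.9, 70.4 and 57.5. WT18, at 100.3, 97.4, 107 and 96.8 CPM, overlapped with set 1, and S2A was lowest at 38.8, 34.1 and 32.1. The RNA of byr2, for the kinase kinase kinase bound by Ras1, went the other way: set 1, at 25.6, 19.9 and 19.7 CPM, lay below all 28 other libraries. Its highest group was T4A at 42.5, 47.3 and 35.1 CPM, and WT29 set 2 measured 35.6, 30.1 and 35.1. Ste4 is an adaptor that binds Byr2. Its RNA was 18.0, 20.8 and 31.1 CPM in set 1 and 4.18, 8.49 and 6.82 in set 2. T4A and the ALT alleles lay between 6.58 and 9.39 and overlapped with set 2. WT18 overlapped with set 1 at 22.9, 19.5, 16.0 and 15.7 CPM, and S2A-S7A was lowest at 3.27, 3.27 and 2.97.

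**Figure D2:**
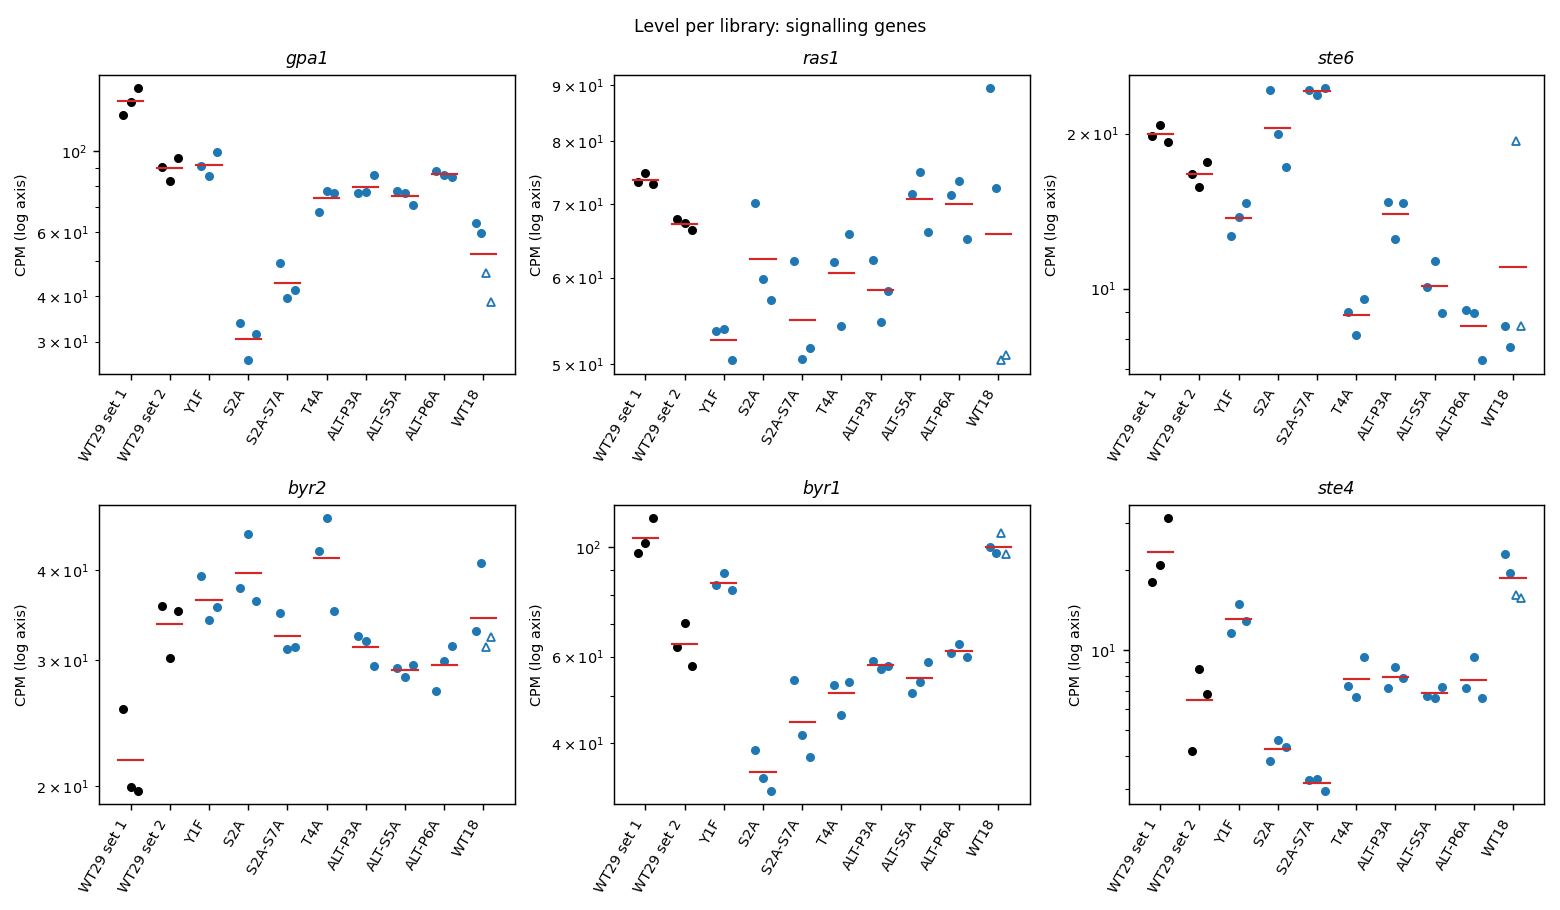
Level of gpa1, ras1, ste6, byr2, byr1 and ste4 in each library, in CPM on a log axis with its own range for each gene; points are libraries, red lines are group means, black marks the control sets and open triangles the earlier WT18 libraries. WT29 set 1 is the highest group for gpa1, ras1, byr1 and ste4 and the lowest for byr2, and ste6 is highest in S2A-S7A.

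Per kilobase of exon, which allows genes to be set beside each other, the means in WT29 set 1 were 67.2 CPM per kilobase (RPKM) for ste11, 67.1 for ras1, 62.6 for gpa1, 60.2 for byr1, 56.7 for spk1 and 36.3 for mei2. Over the 10 groups, the lowest means were 0.524 RPKM for map1 and 1.46 for mei2 in S2A, 2.93 for ste6 in ALT-P6A, 2.96 for ste4 in S2A-S7A and 5.44 for ste11 in WT18, while ras1 did not go below 47.9 in any group. Annotated antisense RNAs lie opposite map1, ste6 and byr1, and no source used here says how strand was handled in the counting, so reads of these genes and their antisense partners cannot be told apart. The antisense RNA of byr1 averaged 5.39 CPM in WT29 set 1 and 18.1 in WT18, that of ste6 between 4.76 and 12.7 over the groups, and that of map1 between 0.306 and 1.56.

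The control sets were compared directly, since every statement on the alleles rests on which set is used. Of the 10 genes, 5 fell in WT29 set 2 against set 1 by at least 2-fold at an adjusted p under 0.05 (edgeR quasi-likelihood F test, Benjamini-Hochberg adjustment over all genes), where 3.86% of the 6043 genes tested were called lower. These calls, termed so by the same thresholds throughout, were on ste11 (log2 fold change -2.57 ± 0.08 SE, 5.93-fold lower), mei2 (-2.60 ± 0.13, 6.05-fold), map1 (-1.97 ± 0.26), ste4 (-1.79 ± 0.29) and spk1 (-1.92 ± 0.10), with 3 libraries per set. Smaller differences passed the adjusted p alone for gpa1 (-0.56 ± 0.09), byr1 (-0.67 ± 0.10) and byr2 (0.68 ± 0.15, higher in set 2). Those of ste6 (-0.21 ± 0.13, adjusted p = 0.23) and ras1 (-0.08 ± 0.07, adjusted p = 0.36) did not pass. The median over the 10 genes was -1.23, and over all genes tested -0.02. The 5 calls held when any control library was left out.

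The control means in the authors' deposited tables gave a further reference. In the tables of Y1F, S2A and S2A-S7A the control means could be rebuilt from the 3 count columns of set 1, to a median difference of 0.0254% over genes. In the 5 authors' deposited tables of T4A, the ALT alleles and WT18 this failed with the count columns of set 2, which were assigned to it by elimination: the median gene was 25.7% off. Relative to the rest of the genes, the ste11 control mean in the authors' deposited table of T4A was 10.6 times the mean of the set 2 count columns and 1.76 times that of set 1. For mei2 the same ratios from the authors' deposited table were 6.67 and 1.08, for spk1 7.76 and 2.03, for map1 6.0 and 1.5, and for ras1 1.11 and 1.03. For byr2, lower in set 1 than in set 2, the ratios from the authors' deposited table were 0.752 and 1.19. The control means behind that table were thus above those of set 1 for all 10 genes, by 1.03 to 2.03 times. Which libraries gave those means was not tested.

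Against set 1, 7 of the 10 genes fell in S2A by at least 2-fold, where 5.63% of 6016 genes tested were called lower. Mei2 fell furthest, by 4.65 ± 0.15 on the log2 scale, followed by ste11 (-3.51 ± 0.25), map1 (-3.23 ± 0.31), spk1 (-2.86 ± 0.12), ste4 (-2.46 ± 0.24), gpa1 (-2.17 ± 0.12) and byr1 (-1.59 ± 0.12). The median of the 10 was -2.31, against -0.01 for all genes. Against set 2, 3 of the 10 were called lower, with 7.42% of 6050 genes as background: mei2 (-2.06 ± 0.19, adjusted p = 4.0e-05), gpa1 (-1.62 ± 0.11, adjusted p = 7.8e-06) and map1 (-1.26 ± 0.29, adjusted p = 0.0054). These 3 were thus called lower whichever control set was used. The authors' deposited table of S2A, which rests on set 1, has them lower too. Ste11 (-0.95 ± 0.27), spk1 (-0.95 ± 0.15) and byr1 (-0.93 ± 0.12) fell against set 2 by less than 2-fold. Ste11 reached -1.39 without S2A replicate 3, the library at 36.3 CPM. The changes of ste6 (0.03 ± 0.17 and 0.22 ± 0.17) and ras1 (-0.25 ± 0.11 and -0.17 ± 0.09) against sets 1 and 2 did not pass the adjusted p.

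S2A-S7A also had 7 of the 10 called lower against set 1, where 9.61% of 6006 genes were. The falls were largest for mei2 (-3.31 ± 0.19), ste4 (-2.85 ± 0.24), map1 (-2.65 ± 0.27), ste11 (-2.32 ± 0.21) and spk1 (-2.20 ± 0.13), then gpa1 (-1.62 ± 0.11) and byr1 (-1.21 ± 0.14). Against set 2 only gpa1 (-1.03 ± 0.12) and ste4 (-1.03 ± 0.24) were called, 2 of 10 where 7.13% of 6055 genes were called lower. Both lie at the 2-fold limit: gpa1 was at -0.95 without S2A-S7A replicate 2 and -0.99 without replicate 3, and ste4 at -0.98 without S2A-S7A replicate 3 and -0.83 without set 2 replicate 5. Ste11 measured 0.28 ± 0.21 against set 2 and did not pass. Ste6 rose slightly against each set, by 0.31 ± 0.12 and 0.54 ± 0.14.

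In Y1F, 4 of the 10 were called lower against set 1, where 5.11% of 6006 genes were: ste11 (-2.85 ± 0.08), mei2 (-1.84 ± 0.11), spk1 (-1.83 ± 0.09) and map1 (-1.59 ± 0.24). Against set 2 none was called by edgeR or by DESeq2's Wald test, with 7.03% of 6057 genes called lower and 7.18% higher. The 6 of the 10 with an unadjusted p under 0.05 also passed the adjusted p. Of them 3 were higher and 3 lower, where 30.3% and 31.4% of all genes tested were at that p. Byr1 rose by 0.37 ± 0.09, and ste11 (-0.26 ± 0.11) and ste6 (-0.33 ± 0.13) fell. Mei2 (0.78 ± 0.14) and ste4 (0.96 ± 0.22) rose against set 2 by less than 2-fold, the opposite direction from set 1, where ste4 fell by 0.84 ± 0.18. The ste4 rise passed 2-fold without Y1F replicate 1 (1.05) and without set 2 replicate 5 (1.22). Ras1 fell against each set, by 0.50 ± 0.08 and 0.39 ± 0.08.

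For T4A, 7 of the 10 were called lower against set 1, where 5.78% of 5974 genes were, and none against set 2, where 7.89% of 6018 genes were called lower and 5.27% higher. Against set 1 mei2 fell by 3.37 ± 0.24, spk1 by 2.90 ± 0.14, ste11 by 2.69 ± 0.13, map1 by 2.68 ± 0.27, ste4 by 1.59 ± 0.24, ste6 by 1.17 ± 0.16 and byr1 by 1.06 ± 0.12. Byr1 was at -0.97 without set 1 replicate 3 and -0.98 without T4A replicate 2, and byr2, which rose by 0.93 ± 0.17, passed 2-fold without set 1 replicate 1 (1.08) and without T4A replicate 3 (1.05). Against set 2, 6 of the 10 had an unadjusted p under 0.05, and DESeq2's Wald test also called none. The same 6 passed the adjusted p, all lower by less than 2-fold, where 22.4% of all genes tested were lower at it. Among them were mei2 (-0.77 ± 0.26), map1 (-0.69 ± 0.24), byr1 (-0.38 ± 0.13) and gpa1 (-0.32 ± 0.10). Spk1 (-0.98 ± 0.17) and ste6 (-0.95 ± 0.17) came closest to 2-fold and ste11 did not pass (-0.11 ± 0.14). Spk1 reached -1.07 and mei2 -1.10 without T4A replicate 2, spk1 -1.02 without set 2 replicate 5, and ste6 -1.0 without T4A replicate 3.

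The 3 ALT alleles had 5 or 6 of the 10 called lower against set 1 and none against set 2. In ALT-P3A 5 were called against set 1, where 3.68% of 6095 genes were: mei2 (-3.55 ± 0.12), ste11 (-3.25 ± 0.09), spk1 (-2.31 ± 0.09), map1 (-1.97 ± 0.21) and ste4 (-1.56 ± 0.18). In ALT-S5A the same 5 genes were called, with ste11 at -2.47 ± 0.12 and mei2 at -2.43 ± 0.18, where 4.16% of 6084 genes were called lower; ste6 joined them at -1.03 without ALT-S5A replicate 2. In ALT-P6A ste6 (-1.22 ± 0.13) was called as well as those 5, among them ste11 (-2.85 ± 0.07) and mei2 (-2.16 ± 0.11), where 4.76% of 6075 genes were called lower. Against set 2, the background called lower and higher was 1.07% and 1.96% of 6081 genes in ALT-P3A, 2.84% and 2.96% of 6086 in ALT-S5A, and 3.23% and 3.12% of 6090 in ALT-P6A. No gene of the 10 passed the call in them by edgeR or by DESeq2's Wald test, and 5, 4 and 3 of the 10 had an unadjusted p under 0.05. At the adjusted p, 4 were lower in ALT-P3A (21% of all genes tested), 3 in ALT-S5A (18.1%) and 2 in ALT-P6A (23.3%). In ALT-P6A 1 was higher at it, where 22.1% of all genes tested were. In ALT-P3A mei2 (-0.91 ± 0.15) and ste11 (-0.66 ± 0.11) fell by less than 2-fold, and mei2 reached -1.02 without set 2 replicate 6. In ALT-P6A ste6 fell by 0.98 ± 0.14, and past 2-fold without ALT-P6A replicate 1 (-1.06) or 2 (-1.05) or without set 2 replicate 5 (-1.02). ALT-S5A had ste6 at -0.76 against set 2. Its ste11 (0.09 ± 0.14) and mei2 (0.16 ± 0.21) did not pass against set 2.

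WT18 gave calls in opposite directions against the control sets, on different genes. Against set 1, 4 of the 10 were called lower, where 8.96% of 6140 genes were: ste11 (-3.63 ± 0.27), mei2 (-3.45 ± 0.54), spk1 (-2.59 ± 0.25) and gpa1 (-1.39 ± 0.20). Against set 2, ste4 (1.52 ± 0.29) and map1 (1.35 ± 0.31) were called higher, 2 of 10 where 24.8% of 6149 genes were called higher, which is near the background. Both were also called with the new libraries alone (ste4 1.74, map1 1.64) and with the earlier ones alone (1.41 and 1.12). Against set 1 neither passed in the full comparison, but map1 was lower by 1.02 in the earlier libraries alone. Ste11 lay at the 2-fold limit against set 2, at -0.99 ± 0.26 with all 4 libraries, -0.71 in the new ones alone and -1.19 in the earlier ones alone. It was at -1.06 without WT18 replicate 1, -1.14 without replicate 2 and -1.04 without set 2 replicate 5. Mei2 was at -1.91 against set 2 in the earlier libraries alone and at -0.11 in the new ones alone. Ste6 was called lower in the new libraries alone, by 1.27 against set 1 and 1.0 against set 2, and against set 1 without WT18 replicate 3 (-1.27).

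Within WT18, mei2 was the member called between the earlier and the new libraries, at -1.98 ± 0.18 (adjusted p = 0.0022), 1 of 10 where 10.6% of 6204 genes were called lower, a share like the background. Ras1 (-0.76 ± 0.13), gpa1 (-0.62 ± 0.13) and ste4 (-0.50 ± 0.15) fell by less than 2-fold. Ste11 (-1.13) and spk1 (-1.02) passed 2-fold without WT18 replicate 3, and ste6 (1.18) without replicate 4. With 2 libraries on each side, mating type, markers, RNA purification and kit differ together.

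**Figure D3:**
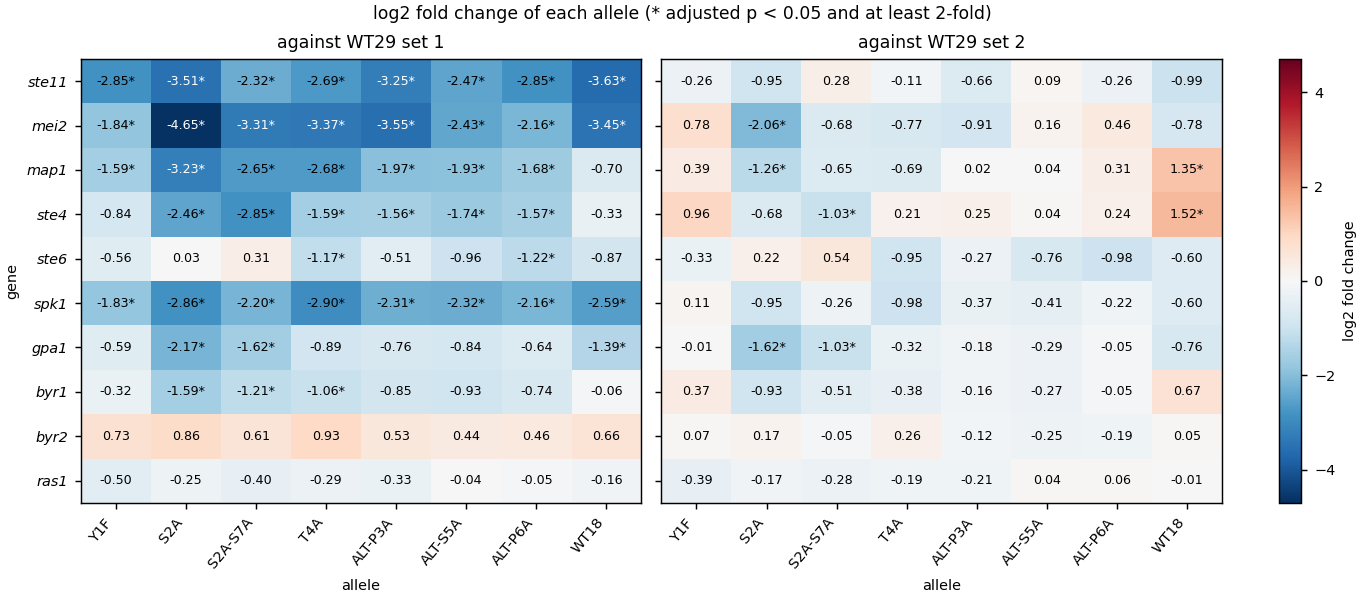
Log2 fold change of each of the 10 genes (rows) in each of the 8 alleles (columns) against WT29 set 1 (left) and WT29 set 2 (right), with blue for lower and red for higher; asterisks mark an adjusted p under 0.05 together with at least 2-fold. Ste11, mei2 and spk1 carry asterisks along the whole left panel, and on the right the calls are mei2, map1 and gpa1 in S2A, ste4 and gpa1 in S2A-S7A and map1 and ste4 in WT18.

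All comparisons against a set share its 3 libraries, so they are not independent of each other. Set side by side, the ste11 values against set 1 ran from -3.63 (WT18) to -2.32 (S2A-S7A), and against set 2 from -0.99 (WT18) to 0.28 (S2A-S7A). For the 5 alleles whose labels name set 2, the authors' deposited tables gave ste11 log2 fold changes of -4.45 in WT18, -4.11 in ALT-P3A, -3.72 in ALT-P6A, -3.52 in T4A and -3.32 in ALT-S5A. Each of these is further below the control than the value against set 1. At the same thresholds the authors' deposited tables have 8 of the 10 genes lower in T4A, ALT-S5A and ALT-P6A and 7 in ALT-P3A and WT18. The share of all genes lower in the authors' deposited tables is not given here, so these counts have no background beside them. Since none of the 10 was called lower against set 2 in these 5 alleles, none could be called lower with all 3 references.

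**Figure D4:**
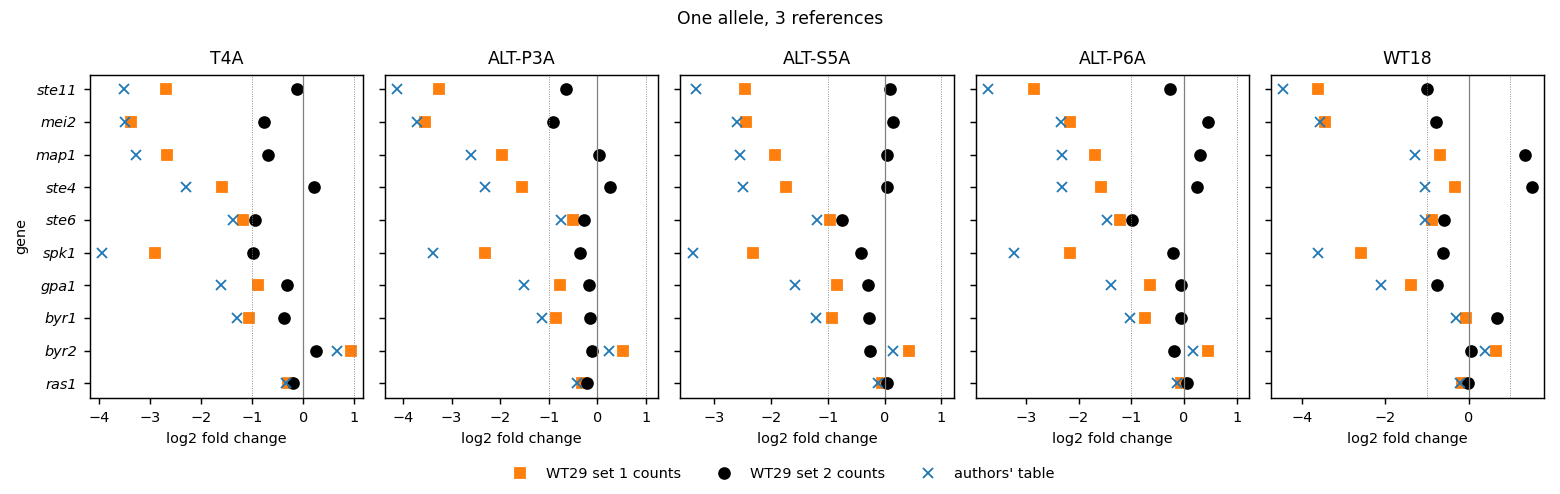
Log2 fold change of the 10 genes in T4A, ALT-P3A, ALT-S5A, ALT-P6A and WT18 with 3 references: the count columns of WT29 set 1 (orange squares), those of WT29 set 2 (black circles) and the authors' deposited table (blue crosses); dotted lines mark 2-fold. For ste11 the crosses lie between -4.45 and -3.32 and the circles between -0.99 and 0.09, while ras1 has the 3 symbols close together.

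Direct contrasts between alleles do not use the level of a control set. Its libraries entered these fits for the filter on low counts, the scaling and the spread. S2A had 6 of the 10 genes lower than Y1F by at least 2-fold, where 3.72% of 6068 genes were called lower. The largest was mei2 (-2.80 ± 0.14, adjusted p = 1.1e-07), with mean levels of 5.89 CPM in S2A and 41.5 in Y1F. Map1 (-1.62 ± 0.32), ste4 (-1.60 ± 0.22), gpa1 (-1.57 ± 0.11), byr1 (-1.26 ± 0.10) and spk1 (-1.02 ± 0.11) followed, the last falling short of 2-fold without Y1F replicate 3 (-0.99) or S2A replicate 2 (-0.98). Ste11 was lower by 0.65 ± 0.22, and by 1.10 without S2A replicate 3. Ste6 (0.60 ± 0.14) and ras1 (0.26 ± 0.09) were higher in S2A by less than 2-fold.

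The further change of serine 7 in S2A-S7A went with higher mei2 (1.34 ± 0.20, adjusted p = 0.0015) and ste11 (1.18 ± 0.29, adjusted p = 0.012) than in S2A, 2 of 10 where 1.6% of 6048 genes were called higher. The mean mei2 level was 14.5 CPM in S2A-S7A and 5.89 in S2A, and the libraries did not overlap. The libraries of ste11 came close, with 37.8 CPM in the lowest of S2A-S7A and 36.3 in the highest of S2A. Its difference was 0.87 without S2A-S7A replicate 1 and 0.97 without S2A replicate 2. Spk1 (0.65 ± 0.13) and gpa1 (0.54 ± 0.12) rose by less than 2-fold, and ste4 did not pass (-0.39 ± 0.23). Against Y1F, S2A-S7A had 4 of the 10 lower, where 8.6% of 6060 genes were: ste4 (-1.99 ± 0.22), mei2 (-1.46 ± 0.17), map1 (-1.03 ± 0.29) and gpa1 (-1.02 ± 0.10). Map1 was at -0.92 without Y1F replicate 2 and, with gpa1 at -0.96, at -1.0 without Y1F replicate 3, just short of 2-fold, and byr1 (-0.88 ± 0.12) reached -1.14 without S2A-S7A replicate 1. Ste11 was higher in S2A-S7A than in Y1F by 0.54 ± 0.19, and by 0.13 to 0.64 under the alternatives. Ste6 was higher by 0.87, and by 0.76 to 0.93 under the alternatives.

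Among the ALT alleles, mei2 was lower in ALT-P3A than in the other two. It was higher in ALT-P6A than in ALT-P3A by 1.38 ± 0.13 (adjusted p = 2.1e-05), the member called where 1.12% of 6148 genes were called higher, with the libraries of ALT-P6A at 30.9 CPM or above and those of ALT-P3A at 13.9 or below. It was higher in ALT-S5A than in ALT-P3A by 1.10 ± 0.20 (adjusted p = 0.0031), again 1 of 10 where 0.994% of 6137 genes were called higher, and by 0.92 without ALT-S5A replicate 1. Ste11 rose in the same contrasts by 0.40 ± 0.09 and 0.77 ± 0.13, and ste6 fell by 0.71 ± 0.13 and 0.46 ± 0.13. Between ALT-P6A and ALT-S5A none of the 10 was called, with 0.0163% of 6140 genes called higher and 0.0489% lower by edgeR. DESeq2's Wald test also called none, and 2 of the 10 had an unadjusted p under 0.05, ste11 at -0.39 ± 0.11 and gpa1 at 0.20 ± 0.07 being the furthest from 0 relative to their errors.

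**Figure D5:**
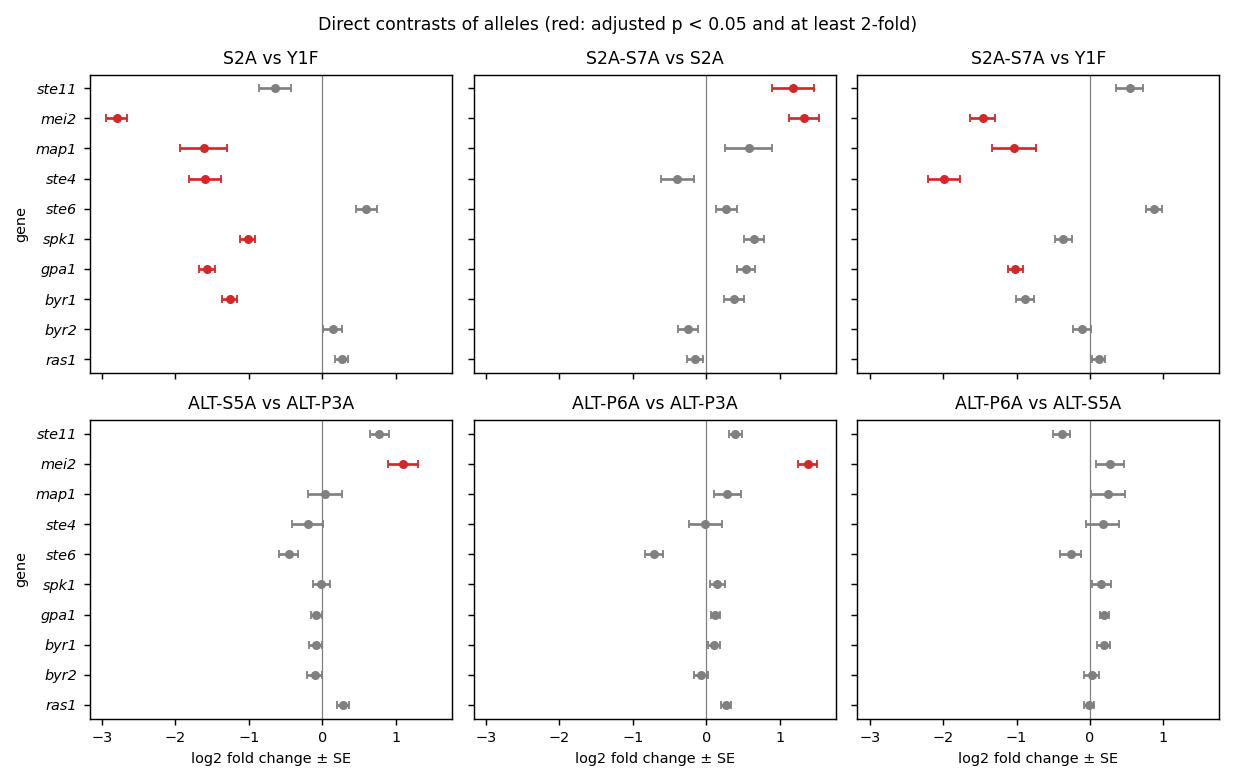
Log2 fold change ± SE of the 10 genes in 6 direct contrasts of alleles, from fits over the 9 libraries of the alleles compared and their control set; red marks an adjusted p under 0.05 together with at least 2-fold. Mei2 is marked in 5 of the 6 panels, and no gene is marked between ALT-P6A and ALT-S5A.

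Other genes of the pathway were counted over a list of 15 pheromone signalling genes, whose median log2 fold change between the control sets was -0.20, with mam2 called lower and mfm2 (1.47) higher in set 2. Against set 1, mam2, the P-factor receptor of M cells, was called lower in Y1F (-2.15), S2A-S7A (-1.99), T4A (-1.99), ALT-S5A (-2.15), ALT-P6A (-2.10), ALT-P3A (-2.01) and WT18 (-2.82). In set 2 itself it was at -1.56. Its mean level was 17.3 CPM in set 1, 9.37 in S2A and 5.68 in set 2. The M-factor receptor gene map3 was called lower against set 1 in Y1F (-1.18), S2A (-1.37) and S2A-S7A (-1.33). The other calls against set 1 were mfm3 (1.01) and sxa2 (1.13) in S2A, fus1 (-1.10) and mei3 (1.05) in S2A-S7A, map2 (1.04) and mfm2 (1.05) in ALT-P3A, map2 (1.09) and rgs1 (-1.0) in ALT-S5A, sxa1 (-1.01) in ALT-P6A, and mfm2 (4.25), fus1 (1.57), sxa2 (1.02) and sxa1 (-1.65) in WT18. In S2A 13 of the 15 passed the filter on low counts against set 1 and 14 against set 2, and elsewhere all 15 did. Against set 2, the genes of the list called higher were 1 in Y1F (7.18% of all genes tested), 2 in S2A (7.11%), 1 in S2A-S7A (6.16%) and 3 in WT18 (24.8%). Those called lower were 2 in Y1F (7.03% of all genes), 3 in S2A (7.42%), 1 in S2A-S7A (7.13%), 2 in T4A (7.89%), 1 in ALT-P6A (3.23%) and 1 in WT18 (11.7%). In ALT-P3A and ALT-S5A edgeR called none, and 7 and 5 of the 15 had an unadjusted p under 0.05. At the adjusted p, 3 were higher and 3 lower in ALT-P3A (21.8% and 21% of all genes tested), and 3 were lower in ALT-S5A (18.1%). The M-factor precursor gene mfm2 was the lower one in ALT-P6A (-1.06) and among the lower ones in T4A (-1.66), S2A (-1.75), S2A-S7A (-2.0) and Y1F (-1.04). The P-factor precursor gene map2 was lower in Y1F (-1.47), S2A (-1.21) and T4A (-1.61), and mei3, which inactivates Pat1, in S2A (-1.14). The M-factor precursor gene mfm3 was higher in Y1F (1.07), S2A (1.53) and S2A-S7A (1.56), and sxa2 in S2A (1.21). In WT18 the rises were mfm2 (2.84), fus1 (1.83), a formin needed for cell fusion, and sxa2 (1.17), a secreted peptidase that degrades P-factor, while mam2 fell (-1.20). The levels of fus1 were 37.1 CPM in the new WT18 libraries, 20.8 in the earlier ones and 8.24 in set 2. In the direct contrasts the calls of the list were mam2 (1.28) and mfm1 (-1.64) in S2A against Y1F, mam2 (-1.10), sxa2 (-1.46) and mei3 (1.28) in S2A-S7A against S2A, and fus1 (-1.36) in S2A-S7A against Y1F. Of all genes tested, 6% were called higher and 3.72% lower in S2A against Y1F. These shares were 1.6% and 2.56% in S2A-S7A against S2A, and 8.6% were called lower in S2A-S7A against Y1F. The calls on mei3 and mfm1 rest on few reads. Over the groups mei3 averaged between 0.366 CPM (S2A) and 0.890 (S2A-S7A), and mfm1 between 0.243 (S2A) and 0.784 (Y1F).

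A list of 21 upstream regulators of ste11 and mei2 was counted in the same way. Between the control sets, which differed at ste11 by 5.93-fold, 6 of the 21 were higher and 6 lower in set 2 at the adjusted p, each by less than 2-fold, where 24.5% and 19.5% of all genes tested passed it. Against set 1 the calls were cgs1, the regulatory subunit of protein kinase A, in S2A (-1.05) and S2A-S7A (-1.03), and cpc2, a RACK1 homologue, in T4A (-1.10) and ALT-P3A (-1.29). Against set 2 they were pat1, the kinase that inhibits Mei2, higher in S2A (1.01), atf1, a stress-activated transcription factor, higher in S2A-S7A (1.06), and nrd1, an RNA-binding repressor of Ste11-dependent genes, lower in Y1F (-1.14). WT18 had 5 of the 21 called lower against set 1, where 8.96% of all genes were, namely pat1 (-1.49), wis1 (-1.73), a kinase of the stress cascade, mmi1 (-1.14), which removes meiotic transcripts in growing cells, nrd1 (-1.13) and rad24 (-1.11), a 14-3-3 protein. Against set 2 it had nrd1 (-1.43) and wis1 (-1.18) lower and lsc1 (1.12) higher, 2 and 1 of the 21 where 11.7% and 24.8% of all genes were. Cgs1 was lower in the earlier than in the new WT18 libraries (-1.27). The median log2 fold change of the 21 in WT18 was -0.71 against set 1 and -0.53 against set 2, beside 0.06 and 0.05 for all genes tested. Lsk1, the CTD serine 2 kinase that fission yeast needs to induce ste11, had mean levels of 76.7 and 94.2 CPM in sets 1 and 2. Where serine 2 is replaced, it averaged 134 CPM in S2A and 101 in S2A-S7A, and was called in neither.

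Genes whose group means tracked those of ste11 or mei2 most closely were ranked among 4747 genes by Pearson correlation of mean log2 CPM over the 10 groups, as a description. The means share the control strain's high set 1, so each correlation is given also over the 9 other groups. For ste11 the 5 nearest were SPBC15C4.06c, annotated as a predicted ubiquitin ligase (0.97, and 0.86 without set 1), cmk1, a calmodulin-dependent kinase (0.96 and 0.83), bst1 (0.92 and 0.55), SPCC330.03c (0.91 and 0.55) and prz1, a calcineurin-responsive transcription factor (0.91 and 0.54). For mei2 they were spk1 (0.91 and 0.80), SPCC330.03c (0.89 and 0.69), ste11 (0.86 and 0.60), gpa1 (0.86 and 0.82) and SPBC947.06c (0.84 and 0.68). The pair ste11 and mei2 thus lost more of its correlation without set 1 than mei2 and gpa1 did.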

How the data were processed

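Polyadenylated RNA was sequenced in 31 libraries. The authors deposited whole read counts per gene, for which the submitters' processing notes name HISAT2 2.1.0, SAMtools and HTSeq 0.10.0. How strand was handled is not given in the sources used here. For each allele the authors also deposited a DESeq2 table of log2 fold changes, adjusted p-values and group means, the last a signal in counts divided by size factors. The table holds 6986 gene IDs, 269 of them without counts, and no column was left unmapped (0). The 3 columns of WT29 set 2, numbered 4, 5 and 6, were assigned to its single sample record by elimination.

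Each comparison was fitted on the libraries of its groups with edgeR 4.0.16 under R 4.3.3 (quasi-likelihood F test, TMM scaling, filterByExpr), with Benjamini-Hochberg adjustment over all genes tested. Fits of direct contrasts also held the shared control set. Calls need at least 2-fold and an adjusted p below 0.05; rose and fell need the adjusted p. Levels are CPM over all 31 libraries; RPKM used exon lengths found for 6833 IDs in an annotation of ASM294v3. That is not the build in the submitters' processing notes (ASM294v2), so coordinates are left out. The fit was tested on simulated data. Alternatives were DESeq2 1.42.0 size factors and Wald test, no filter, a block for replicate number, leaving out each library and, for WT18, new or earlier libraries alone.

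The members and lists were chosen with earlier results of these data known. All 10 members are named, list genes where called, and for ste11 and mei2 the 5 genes of highest correlation. Replicate numbers were treated as pairing the libraries where every correlation of same-numbered deviations was over 0.1. This held in the contrast of S2A-S7A with S2A (0.68, 0.16 and 0.35) and in that of ALT-P6A with ALT-S5A (0.31, 0.38 and 0.18). The pairing comes from the data, and whether it exceeds chance was not tested.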

Additional observations from a re-analysis of the deposited data

Results flagged for a closer look

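In WT18, the group with 4 libraries, a library stood apart from the others for 2 of the 10 genes by Dixon's criterion at the 95% level, which flags about 1 in 20 groups by chance. The ste6 level was 19.4 CPM in WT18 replicate 3, an earlier library, and 8.47, 7.70 and 8.48 in the others. The byr2 level was 41.0 CPM in WT18 replicate 2, a new library, and 32.9, 31.3 and 32.3 in the others.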

How the results depend on the processing

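Of the 24 counts of members called, 14 stayed within 1.5 times under every alternative run. Leaving out 1 library at a time moved the count against set 2 between 0 and 1 in Y1F, 0 and 2 in S2A-S7A, 0 and 2 in T4A, 0 and 1 in ALT-P3A and 0 and 1 in ALT-P6A. It moved S2A-S7A against S2A between 1 and 2, S2A-S7A against Y1F between 2 and 5, ALT-S5A against ALT-P3A between 0 and 1, and earlier against new WT18 libraries between 1 and 3. With the 2 earlier WT18 libraries alone, WT18 against set 2 had 4 members called, 2 in each direction. The share of all genes called in that fit is not given here. With all 4 WT18 libraries, 24.8% of all genes tested were called higher and 11.7% lower. The cause of the changed count was not tested. Of 2330 fold changes of members under alternatives, 31 gained the call, 14 lost it and 0 reversed a called direction. Against set 2, ste11 in WT18 passed 2-fold with DESeq2 size factors (-1.01), its Wald test (-1.01) and no filter (-1.01). Over all genes, the calls for ALT-P3A against set 2 (184) ran from 157 to 475 without 1 library, S2A-S7A against S2A (252) from 167 to 398, earlier against new WT18 (800) from 475 to 1058, and ALT-P6A against ALT-S5A (4) from 1 to 8.

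With the replicate number as a block, ALT-P6A against ALT-S5A had 31 genes called in place of 4, and still 0 of the 10 members; S2A-S7A against S2A kept 2 members called, and no other count of members moved. Elsewhere the correlations of same-numbered libraries did not meet the rule for pairing. No paired analysis was possible because numbers do not match for comparisons with set 2. Among the members, low counts limit map1, with 14 to 224 reads per library. In the signalling list they limit mei3 and mfm1, at group means of at most 0.890 and 0.784 CPM.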
